A study of Picromerus lewisi with 6 samples.

Results

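Transcript clusters for cuticle proteins and for the enzymes and binding proteins of chitin were followed in venom glands of the stink bug Picromerus lewisi, which preys on other insects and subdues them with injected venom. Clusters were taken as members where a protein match in the NR or Swiss-Prot database named a cuticle or cuticular protein, resilin, chitin synthase, chitin deacetylase, chitinase, obstructor, knickkopf, peritrophin or laccase, and rows whose nucleotide match named a noctuid moth genus or Mus were dropped. This gave 60 of 22242 clusters, from 66 rows that matched the names and 6 that were dropped. The series compared 3 libraries of adult venom glands with 3 libraries of venom glands from nymphs of the 5th instar, all from total RNA with no treatment given in the labels. Whether each library stands for its own animals or for a shared pool is not given in the labels, so p-values measure only how these libraries vary, which may be technical variation. Sets of 3 values are given in the order of replicates 1, 2 and 3 of a stage.

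Insect cuticle is a composite of chitin fibres and structural proteins, laid down by a single layer of epidermal cells and also lining the foregut, hindgut, tracheae and the ducts of many glands. Before each moult the old cuticle is partly digested by chitinases and a new one is secreted beneath it, bound by cuticle proteins, trimmed by chitin deacetylases and hardened by oxidised catechols that laccase helps to form. A 5th-instar nymph of a stink bug has its final moult ahead of it, whereas an adult moults no more.

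By role, the members were 30 structural cuticle proteins, 7 clusters matching obstructor-E, 6 chitin deacetylases, 14 chitinases and chitinase-like proteins and 3 laccases. No cluster was assigned to the roles of chitin synthase, knickkopf or resilin. The members were short, with a median length of 652.5 bases, and 12 of them were under 400 bases. The first NR match came from a true bug for 56 of the 60, from Halyomorpha halys for 39 and from Nezara viridula for 16. The 60 had 56 different first NR matches, and 9 clusters fell on 4 shared nucleotide matches, so some clusters may be pieces of 1 gene. The protein family database Pfam, which the choice of members did not use, placed a glycosyl hydrolase family 18 domain, the catalytic fold of insect chitinases, in 13 of the 14 chitinases. All 7 obstructor clusters and 2 of the 6 chitin deacetylases carried a peritrophin-A chitin-binding domain. A polysaccharide deacetylase domain was placed in only 2 of the 6 chitin deacetylases, and 3 of the 6 had no Pfam match. No first NR match of the 6 named a chitin deacetylase, whereas the Swiss-Prot match of each did. All 3 laccases carried a multicopper oxidase domain, whereas 27 of the 30 structural cuticle clusters had no Pfam match.

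Levels are in FPKM, the deposited unit, which divides the fragments of a cluster by its length and by the library's mapped total. Mapped totals recovered from the steps of the FPKM ran from 13925726 to 19085672 fragments per library, and the members of at least 400 bases held between 1135 fragments in adult replicate 1 and 16983 in nymph replicate 1. In a cluster of 1000 bases, 3 fragments were worth from 0.222 to 0.302 FPKM, which is about the level that an entry of 0 allows, for counting error only. Clusters matching a mitochondrial genome took 93.8%, 21.0% and 86.3% of the adult libraries' FPKM and from 63.9% to 84.0% of the nymph libraries', which left 4188970, 12494226 and 5634901 fragments for all other clusters of at least 400 bases in adult glands and 4502928, 14292092 and 10394322 in nymph glands. Nymph replicate 1 was thus among the shallowest libraries outside the mitochondrial clusters. Venom gland products, 70 clusters named as venom proteases, venom allergens and the like, summed to between 68990 and 327620 rescaled FPKM in every library. Of the 63 tested, 22 were higher and 7 lower in adults at an unadjusted p under 0.05, against 2.95% and 6.09% of all clusters tested, with a median log2 fold change of 0.67 and no call. The part of this shift in the members' values was not tested. As for the labelled stages, 6 clusters for vitellogenin, the egg yolk precursor, or its receptor were listed at 0 in all nymph libraries and present in some or all adult libraries.

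Cuticle and chitin transcripts were scarce in the gland and were detected more widely in nymphs. Members together made up 0.00216%, 0.0247% and 0.0107% of all FPKM of the adult glands, and 0.0376%, 0.0231% and 0.0139% of the nymph glands. With mitochondrial clusters left out, they held 0.0351%, 0.0313% and 0.0777% of FPKM in adult glands and 0.234%, 0.0639% and 0.0849% in nymph glands, so the stages overlapped on that scale. An FPKM of at least 1 was reached by 13, 20 and 15 of the 60 members in adult glands, whereas 52, 30 and 41 reached it in nymph glands. In every adult library the share of members detected lay below the share of all clusters detected, and in every nymph library it lay above it. The gap was small in adult replicate 1 (21.7% of members, 22.2% of all clusters) and nymph replicate 2 (50% and 48.8%), and widest in adult replicate 2, where 81.6% of all clusters but 33.3% of the members reached an FPKM of 1. The members were also concentrated in nymph replicate 1, where 35 of the 60 had their highest deposited FPKM, or 58.3% against 21.9% of all clusters.

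**Figure D1:**
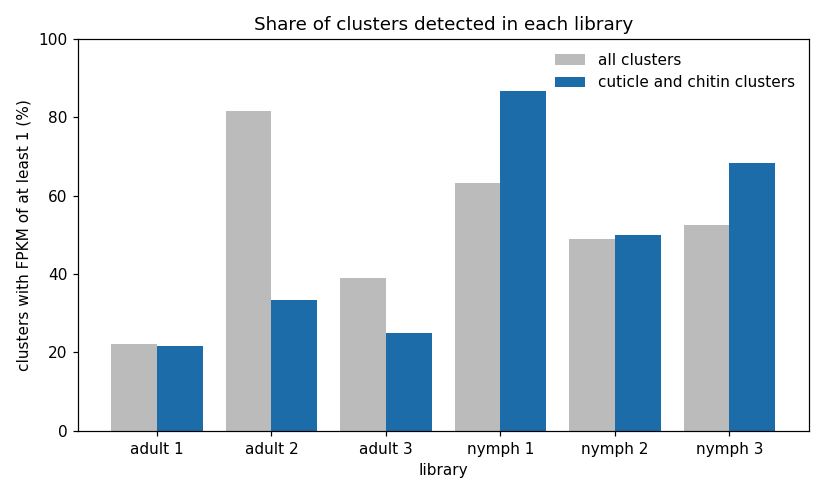
Bars give the percentage of clusters with a deposited FPKM of at least 1 in each of the 6 libraries, grey for all 22242 clusters and blue for the 60 cuticle and chitin clusters. The blue bar is below the grey bar in the 3 adult libraries, by most in adult replicate 2 (33.3% against 81.6%), and above it in the 3 nymph libraries, with little between them in adult replicate 1 and nymph replicate 2.

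In the stage comparison, limma was fitted across the whole table on log2(rescaled FPKM + 1), adult minus nymph, for clusters that reached 1 FPKM in 3 or more libraries. Of the 60 members, 30 passed this filter on low values, 9 of them through nymph libraries alone and none through adult libraries alone. Those 9 are 30% of the members tested, whereas 2.67% of all clusters tested passed through nymph libraries alone. Since a member that passes through 1 stage alone has to differ, counts over the 30 are given here as a description. One cluster, cuticle protein 6.4 (Cluster-9520.3694), was lower in adults past the threshold of a Benjamini-Hochberg adjusted p under 0.05, and 0 members were higher, against 0.134% and 0.1% of all 11961 clusters tested in each direction and 0.234% in either. At an unadjusted p under 0.05, 12 of the 30 were lower in adults and 3 were higher, against 6.09% and 2.95% of all clusters tested. A log2 fold change below 0 was found in 23 of the 30, against 61.6% of all clusters tested, and on deposited FPKM stages did not overlap in 12 lower and 3 higher in adults, against 6.6% and 2.06%. On rescaled FPKM these were 11 and 2, against 10.1% and 3.95%. The 9 members that passed through nymph libraries alone include the cluster called. All 9 are among the 12 lower at an unadjusted p under 0.05 and among the 12 lower without overlap. For those 9 the filter itself fixes the lack of overlap on deposited FPKM, so the shares of all clusters are no like background for these counts. The 30 had a median log2 fold change of -1.62, or -1.26 over those not listed at 0 in a whole stage, and the median over all clusters tested was -0.29. With a nymph library left out the filter admits only clusters detected in an adult library, so those fits cover fewer members. How far the filter set their medians was not tested. With no filter the median was -1.55 over all 60, and -0.83 over 55 members without nymph replicate 1, where that of all clusters was 0.032. It was -1.83 over 59 members without nymph replicate 2 and -1.72 over 58 without nymph replicate 3.

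Counts that do not depend on the filter went the same way. Over all 60 members, every deposited adult value was below every nymph value in 15 and above in 3, against 3.83% and 1.21% of all 22242 clusters. After rescaling these were 14 and 2, against 5.77% and 2.27%. With no filter on low values, 51 of the 60 had a log2 fold change below 0, against 59.1% of 22183 clusters, and without nymph replicate 1 it was 39 of 55 against 49.2%. With all 6 libraries the unfiltered fit called 3 members lower in adults and 0 higher, against 0.23% of clusters called lower and 0.469% in either direction. Of those 3, it called 1 without nymph replicate 1 and 0 without adult replicate 2, nymph replicate 2 or nymph replicate 3. Listed at 0 in all 3 adult libraries were 27 of the 60 members, or 45% against 9.16% of all clusters, and 1 member, or 1.67% against 12.8%, was listed at 0 in all nymph libraries. In bulk glands, fewer cells of a type and less RNA per cell cannot be told apart.

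**Figure D2:**
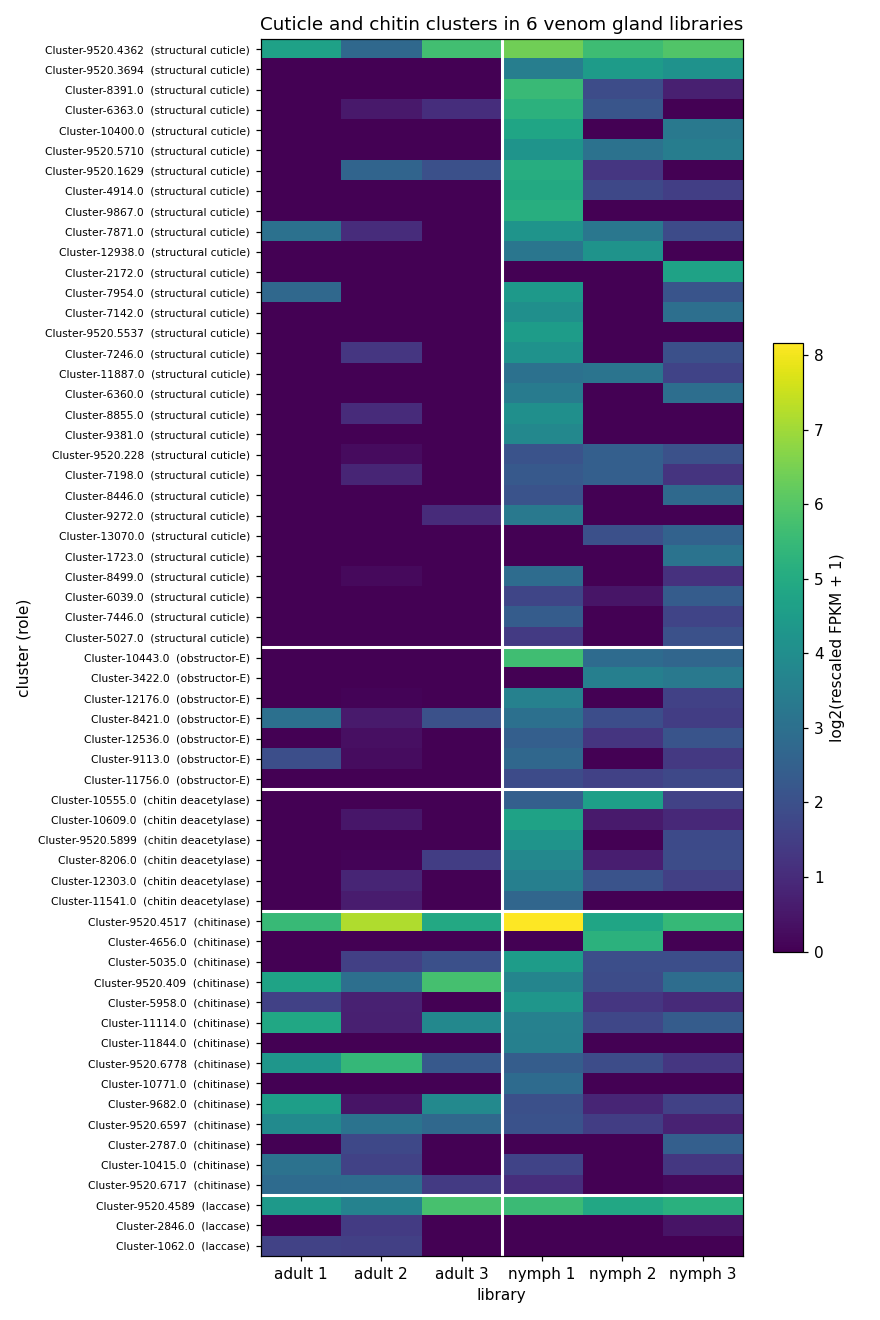
Colour gives log2(rescaled FPKM + 1) of each of the 60 clusters (rows, grouped by role and ordered by the nymph mean) in 3 adult and 3 nymph libraries (columns). The structural cuticle, obstructor-E and chitin deacetylase blocks are dark across most adult columns and lit in the nymph columns, most of all in nymph replicate 1, while the chitinase and laccase blocks have lit cells in both stages.

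Structural cuticle proteins, which bind chitin and set the stiffness of the exoskeleton, were the largest role and the one with most clusters at 0 in adult glands. Their summed FPKM, rescaled between libraries, was 37.5, 16.0 and 55.5 in adult glands against 497.2, 132.8 and 182.2 in nymph glands, so the stages did not overlap. All 30 had their highest deposited FPKM in a nymph library, 19 of them in nymph replicate 1, and 19 were listed at 0 in every adult library. Of all clusters, 21.9%, 16.4% and 8.15% were highest in nymph replicates 1, 2 and 3, and 9.16% were listed at 0 in every adult library. Of the 30, 12 passed the filter and all 12 had a log2 fold change below 0, with 1 call and 11 that missed the threshold. Of these 12, 5 passed through nymph libraries alone, so the filter itself favours that direction, and 61.6% of all clusters tested were below 0.

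Cuticle protein 6.4 (Cluster-9520.3694, 443 bases) was at 10.4, 29.2 and 16.6 FPKM in nymph replicates 1, 2 and 3, resting on 34, 83 and 45 fragments, with 0 in each adult library (limma adjusted p = 0.033). Unlike most members it was not highest in nymph replicate 1. It missed the threshold without adult replicate 1 (limma adjusted p = 0.077), without adult replicate 2 (0.13), with the replicate number as a block (0.058), after rescaling to an equal total (0.056) and with a pseudocount of 0.1 (0.10), and it missed the filter whenever a nymph library was left out. Cluster-9520.5710, an uncharacterised bug protein matching cuticle protein 6 in Swiss-Prot, was at 18.2, 10.1 and 9.95 FPKM in nymph glands, on 271, 184 and 172 fragments, and every adult library listed 0 (limma adjusted p = 0.073). All 3 nymph libraries were at similar levels and the stages did not overlap. It passed on FPKM as deposited (limma adjusted p = 0.047) and with no filter (0.029).

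The most abundant structural cluster was Cluster-9520.4362, whose first name is protein gar2 and whose further NR match is a cuticle protein of the RR-2 class, while Swiss-Prot names a phospholipase, so its place among the cuticle proteins is uncertain. It was at 6.94, 9.52 and 78.6 FPKM in adult glands and at 85.6, 65.2 and 60.5 in nymph glands. After rescaling the means were 26.9 ± 22.4 (SD, n = 3) and 64.2 ± 18.1 (SD, n = 3) (limma adjusted p = 0.54). Adult replicate 3 thus stood among the nymph values on the deposited scale. Without this cluster the role summed to 13.1, 10.2 and 5.13 in adult glands and to 414, 84.9 and 121 in nymph glands, still with no overlap.

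Several other cuticle proteins were near or at 0 in adult glands and present in all nymph libraries. The endocuticle glycoprotein SgAbd-2 (Cluster-4914.0), named after proteins of the inner cuticle of locusts, was at 30.6, 3.29 and 1.82 FPKM in nymph glands and at 0 in adult glands (limma adjusted p = 0.38). Cuticle protein 16.5 (Cluster-11887.0) was at 7.46, 10.7 and 2.11 in nymph glands and at 0 in adult glands (limma adjusted p = 0.27). A cuticle protein 7-like cluster (Cluster-9520.228) was at 3.36, 6.19 and 3.06 in nymph glands and at 0, 0.31 and 0 in adult glands (limma adjusted p = 0.31). In each of these 3 the stages did not overlap, but SgAbd-2 was high in nymph replicate 1 alone, and none passed the threshold.

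Other structural clusters were carried by nymph replicate 1 and overlapped between stages. Cluster-6363.0, matching a larval cuticle protein in Swiss-Prot and an elongation factor in the nucleotide database, was at 37.8, 4.67 and 0 FPKM in nymph glands and at 0, 0.77 and 1.69 in adult glands (limma adjusted p = 0.72). Cuticle protein 8 (Cluster-9520.1629) was at 33.6, 1.94 and 0 in nymph glands and at 0, 8.43 and 4.71 in adult glands (limma adjusted p = 0.90), and its direction turned without adult replicate 1 or nymph replicate 1. Of the 18 structural clusters that did not pass the filter, a cuticle protein 7-like cluster (Cluster-8391.0) reached 45.8 FPKM in nymph replicate 1 with 3.71 and 0.65 in the other nymphs. An SgAbd-8-like cluster (Cluster-9867.0, 317 bases) reached 34.6 in nymph replicate 1 and was listed at 0 in the other 5 libraries.

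**Figure D3:**
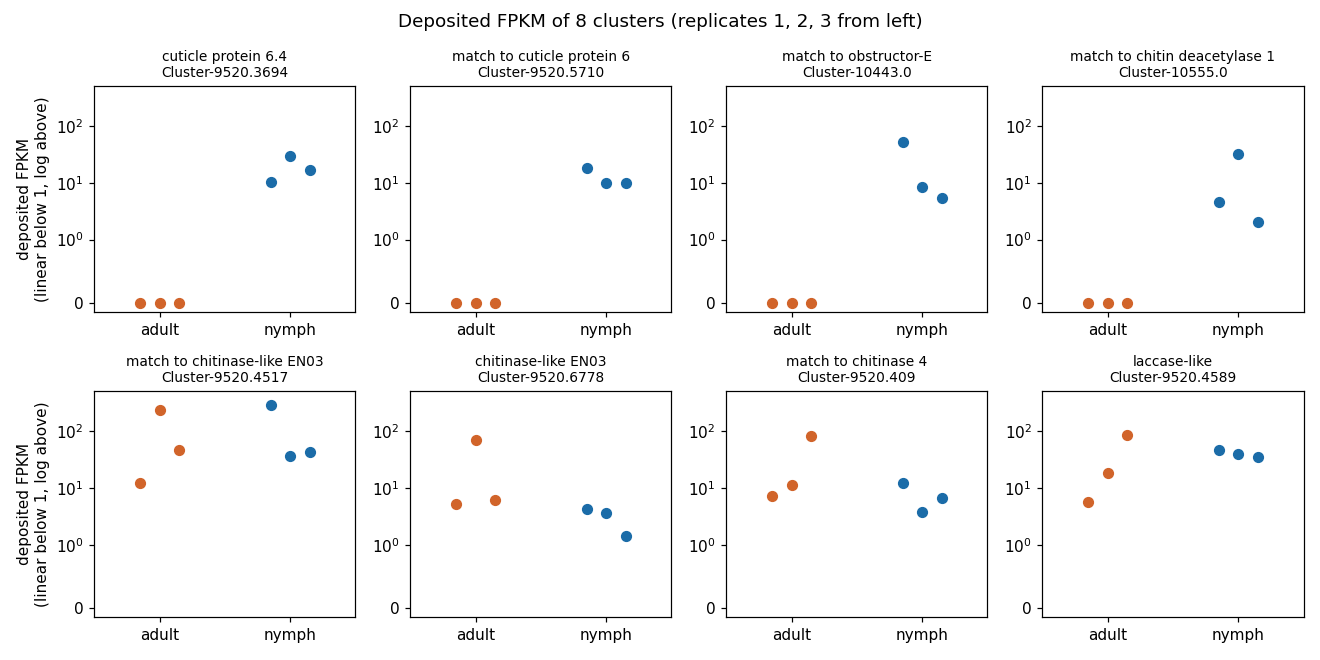
Deposited FPKM of 8 clusters in 3 adult (orange) and 3 nymph (blue) libraries, 1 point per library, on an axis that is linear below 1 and logarithmic above. In the upper row all 3 adult libraries are listed at 0 and the nymph libraries lie between 2.02 and 51.1, and in the lower row the stages overlap for all but the chitinase-like EN03 cluster Cluster-9520.6778, whose adult libraries lie above its nymph libraries.

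Obstructor proteins bind chitin in the forming cuticle and, in Drosophila, organise its layers. Their summed rescaled FPKM was 9.95, 1.03 and 3.09 in adult glands against 81.1, 22.9 and 25.4 in nymph glands, with no overlap between the stages. The leading one (Cluster-10443.0, 1026 bases) was at 51.1, 8.37 and 5.36 FPKM in nymph glands, on 597, 117 and 71 fragments, and at 0 in adult glands (limma adjusted p = 0.18). It was highest in nymph replicate 1 by a wide margin, yet well above 0 in the other nymphs. With no filter its limma adjusted p was 0.019 and on FPKM as deposited 0.031. Cluster-12536.0 was at 4.60, 1.88 and 3.31 in nymph glands and 0, 0.44 and 0 in adult glands, and Cluster-11756.0 at 2.74, 2.69 and 2.41 in nymph glands and 0 in adult glands (limma adjusted p = 0.40 and 0.34). A further obstructor-E-like cluster, Cluster-8421.0, did not share that pattern. It was at 1.99, 0.83 and 4.82 in adult glands and 7.29, 3.85 and 1.75 in nymph glands (log2 fold change -0.27 ± 0.79 SE, limma adjusted p = 0.93). Of the 3 obstructor clusters below the filter, Cluster-12176.0 reached 11.4 FPKM in nymph replicate 1 and Cluster-3422.0 reached 14.4 in nymph replicate 2.

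Chitin deacetylases remove acetyl groups from chitin and alter how it binds proteins. All 6 clusters had their highest FPKM in a nymph library, against 21.9%, 16.4% and 8.15% of all clusters in nymph replicates 1, 2 and 3. Their summed rescaled FPKM was 0, 1.82 and 1.77 in adult glands against 76.3, 27.6 and 10.2 in nymph glands. The nymph libraries spread widely among themselves, and the lowest of them was still above every adult library. Cluster-10555.0, a short cluster of 337 bases, was at 4.62, 31.7 and 2.02 FPKM in nymph glands and at 0 in adult glands (limma adjusted p = 0.31). Cluster-12303.0 was at 10.8, 4.36 and 1.89 in nymph glands and 0, 1.33 and 0 in adult glands, a log2 fold change of -2.10 ± 0.79 SE (limma adjusted p = 0.42). Cluster-8206.0, which holds both the deacetylase and the chitin-binding domain, was at 13.2, 0.85 and 2.73 in nymph glands and 0, 0.11 and 2.76 in adult glands (limma adjusted p = 0.71). Of the clusters below the filter, Cluster-10609.0 was at 25.7, 0.69 and 0.92 in nymph glands and Cluster-9520.5899 at 18.1, 0 and 2.52, both led by nymph replicate 1. Cluster-10609.0, Cluster-9520.5899 and Cluster-10555.0 share 1 nucleotide match, so these 3 of the 6 deacetylase clusters may be pieces of 1 gene.

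Chitinases digest chitin, and this role had members on both sides of 0. Of the 14, 10 passed the filter, and 7 of these had a log2 fold change above 0 and 3 below, with no call. Their summed rescaled FPKM overlapped, at 168.0, 216.9 and 122.9 in adult glands against 378.7, 78.9 and 68.0 in nymph glands. All 3 members whose deposited adult values lay above every nymph value were in this role, and 2 of them stayed so after rescaling.

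The role includes 4 clusters named chitinase-like protein EN03 or Idgf4, secreted relatives of chitinases known in Drosophila as imaginal disc growth factors, which share the fold and lack chitinase activity there. Cluster-9520.4517 was the most abundant of all 60 members. It was at 12.4, 239.5 and 46.1 FPKM in adult glands and at 291.2, 36.8 and 42.6 in nymph glands, on 259 to 6612 fragments. Adult replicate 2 and nymph replicate 1 were both far above the other libraries, and the difference between stages was within the spread (log2 fold change -0.27 ± 0.89 SE, limma adjusted p = 0.94). It changed direction without nymph replicate 1 or adult replicate 3.

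The other EN03 clusters diverged. Cluster-9520.6778 was at 5.31, 69.1 and 6.04 FPKM in adult glands and 4.35, 3.66 and 1.45 in nymph glands, with adult replicate 2 far above the rest (log2 fold change 2.15 ± 0.79 SE, limma adjusted p = 0.40). The stages did not overlap on deposited FPKM, but after rescaling adult replicate 3 (3.87) lay below nymph replicate 1 (4.25). It was called higher in adults in the unfiltered fit without adult replicate 3 (limma adjusted p = 0.011), a setting added after the data were seen. A shorter EN03 cluster, Cluster-9520.6597, which was chosen after its values were seen, was at 3.96, 12.5 and 8.87 in adult glands and 3.26, 2.44 and 0.72 in nymph glands (limma adjusted p = 0.38). It shares its nucleotide match with Cluster-9520.6778, so both may come from 1 gene. Cluster-5035.0 lay the other way, at 0, 3.14 and 4.62 in adult glands and 22.4, 3.90 and 2.85 in nymph glands (limma adjusted p = 0.67). Only nymph replicate 1 stood above the adults there, as the other nymph values lay within the adult range.

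Of the remaining chitinases, Cluster-9520.409 matches chitinase 4 of Halyomorpha halys and carries the chitinase class I domain, a family best known from plants. It was at 7.20, 11.3 and 82.4 FPKM in adult glands and 12.3, 3.75 and 6.56 in nymph glands, a log2 fold change of 1.64 ± 0.76 SE (limma adjusted p = 0.57), with adult replicate 3 well above the others. A chitinase-3-like cluster (Cluster-9520.6717) was at 1.75, 10.6 and 2.53 in adult glands and 1.10, 0 and 0.13 in nymph glands, with no overlap (log2 fold change 1.97 ± 0.77 SE, limma adjusted p = 0.45). Probable chitinase 2 (Cluster-11114.0) was at 7.94, 1.06 and 20.5 in adult glands and 11.2, 3.19 and 4.13 in nymph glands (limma adjusted p = 0.87), and its direction turned without adult replicate 1. It shares its nucleotide match with Cluster-9682.0, another member. An endochitinase, Cluster-5958.0, was also chosen after its values were seen. It carries both a catalytic and a chitin-binding domain and was at 0.57, 1.12 and 0 in adult glands and 18.8, 1.96 and 0.97 in nymph glands (limma adjusted p = 0.74). Below the filter, Cluster-11844.0 was at 11.1 FPKM in nymph replicate 1 alone, and Cluster-4656.0, which matches a moth chitinase, was at 50.6 in nymph replicate 2 alone.

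**Figure D4:**
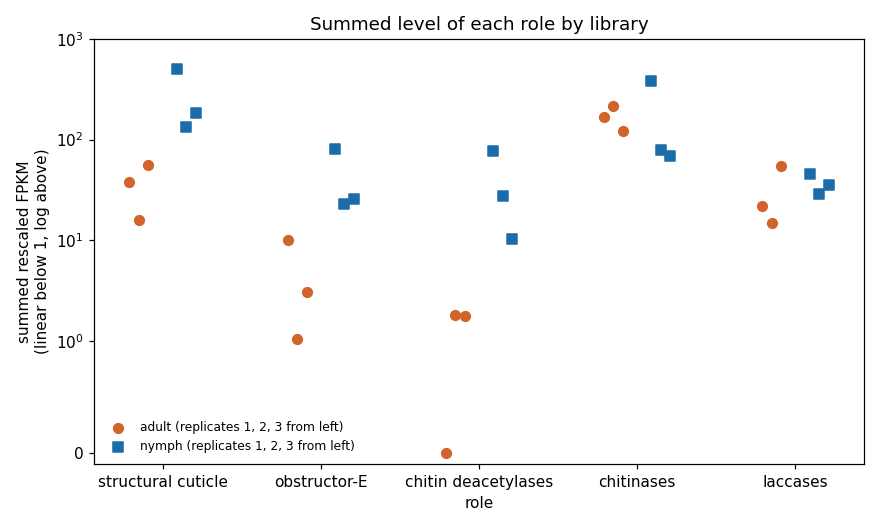
Points give the sum of rescaled FPKM over the clusters of each role in each library, adult replicates in orange and nymph replicates in blue, on an axis that is linear below 1 and logarithmic above. For structural cuticle proteins, obstructor-E and chitin deacetylases the 3 nymph points lie above the 3 adult points, and for chitinases and laccases the stages overlap.

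Laccases are multicopper oxidases, one of which hardens and darkens insect cuticle. The laccase-like Cluster-9520.4589 (2139 bases) was at 5.66, 18.6 and 85.1 FPKM in adult glands and 47.0, 39.1 and 34.5 in nymph glands. The nymphs agreed closely and the adults surrounded them, so the stages overlapped (rescaled mean 28.6 ± 22.9 (SD, n = 3) in adults and 36.5 ± 8.73 (SD, n = 3) in nymphs, log2 fold change -0.60 ± 0.62 SE, limma adjusted p = 0.80). The other laccases were low and highest in adult replicate 2. Cluster-1062.0, matching multicopper oxidase 2 of another stink bug, was at 0.59, 3.16 and 0 in adult glands and 0 in nymph glands, and Cluster-2846.0 (laccase-5) at 2.76 in adult replicate 2, 0.33 in nymph replicate 3 and 0 elsewhere. They rested on 57 and 22 fragments in adult replicate 2 and share 1 nucleotide match, so they may be pieces of 1 gene.

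**Figure D5:**
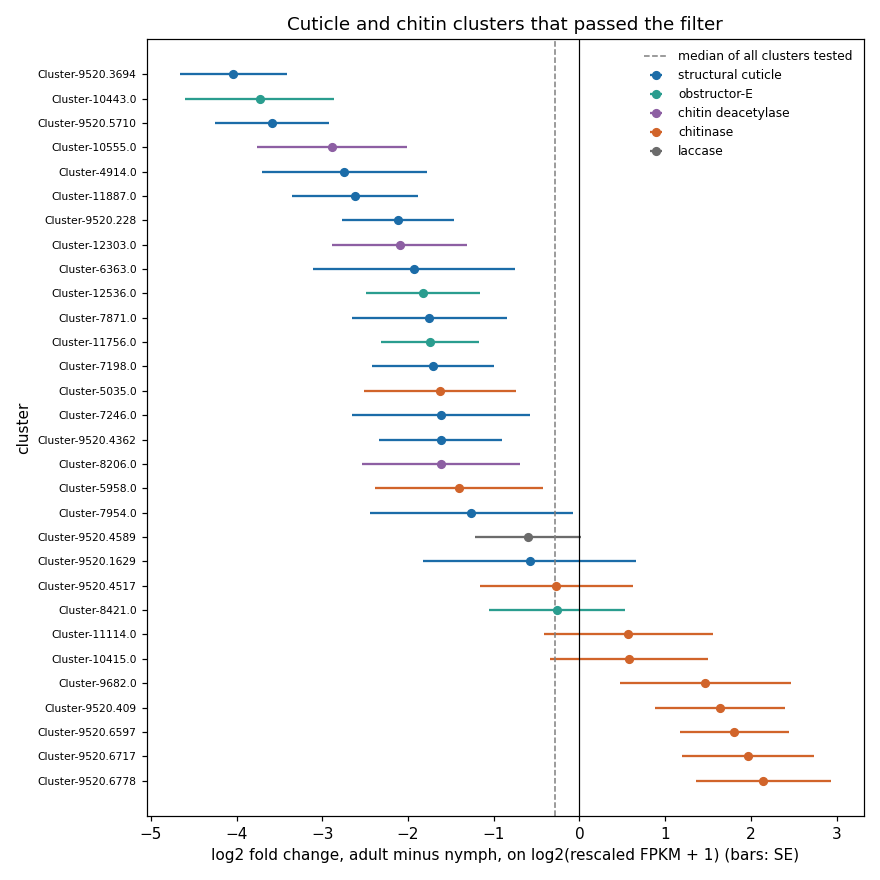
Log2 fold change, adult minus nymph, with its standard error for the 30 clusters that passed the filter, coloured by role, on the log2(rescaled FPKM + 1) scale, where values of clusters listed at 0 in all adults depend on the pseudocount. All 12 structural, 4 obstructor-E and 3 chitin deacetylase points lie below 0, and 7 of the 10 chitinase points lie above it. Of the structural, obstructor-E and chitin deacetylase points, 5, 3 and 1 passed the filter through nymph libraries alone, which favours that side. Of all clusters tested, 61.6% were below 0.

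No cluster was called among the enzymes that feed or follow these members. At an unadjusted p under 0.05, 0 of the precursor enzymes or hexosaminidases passed in either direction. Of 13 clusters listed by name for the route to UDP-N-acetylglucosamine, the building block of chitin, 10 were tested, with a median log2 fold change of -0.25. The list includes trehalases, hexokinases and glucose-6-phosphate isomerases, enzymes of general sugar metabolism, so this median is not particular to chitin precursors. Trehalase (Cluster-9520.4904), which releases glucose from the blood sugar of insects, was at 8.66, 12.2 and 36.8 FPKM in adult glands and 47.3, 36.7 and 13.0 in nymph glands. Glucose-6-phosphate isomerase (Cluster-9520.5947) was at 5.54, 28.6 and 20.3 in adult glands and 9.21, 35.9 and 23.7 in nymph glands. In both the stages overlapped. The hexosaminidase list, enzymes that finish the digestion of chitin, held 5 clusters, all tested with no call and a median of -0.29. One of them, Cluster-9520.1470, is named a cytosolic endo-beta-N-acetylglucosaminidase, which acts on glycoproteins and not on chitin, and the median of the other 4 was -0.80. The 2 most abundant, Cluster-9520.5201 and Cluster-9520.3472, overlapped between stages. The first was at 4.67, 29.0 and 29.7 FPKM in adult glands and 22.8, 19.1 and 8.73 in nymph glands, and the second at 2.42, 0.53 and 5.09 in adult glands and 3.59, 4.56 and 3.99 in nymph glands.

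Of 29 clusters listed by name for hormones of moulting and metamorphosis, 11 were named in Swiss-Prot as enzymes of juvenile hormone, which sets the kind of moult. The other 18 were named in NR or Swiss-Prot for ecdysteroids, the moulting hormones, or the response to them. Some clusters of each group have other names in NR, among them carboxylesterases, so their function is uncertain. Of the juvenile hormone enzymes 8 were tested, 3 being lower in adults and 0 higher at an unadjusted p under 0.05, with a median of -0.39. Of the ecdysteroid clusters 11 were tested, 2 being lower and 0 higher, with a median of -0.78. None was called, and over all clusters tested 6.09% were lower, 2.95% were higher and the median was -0.29. The list's most abundant tested cluster, Cluster-9520.4537, is named venom carboxylesterase-6 in NR and juvenile hormone esterase in Swiss-Prot, and the next, Cluster-5315.0, has the same pair of names. The first was at 5.78, 10.7 and 71.3 FPKM in adult glands and 76.3, 65.1 and 61.0 in nymph glands, and the second at 21.8, 1.17 and 0 in adult glands and 5.78, 0 and 0 in nymph glands, both with overlap. Nuclear receptor HR3 (Cluster-9520.3058), a moulting regulator that was chosen after its values were seen, was at 5.67, 1.89 and 2.42 in nymph glands and 0, 0.28 and 0 in adult glands (limma adjusted p = 0.40). Of 21 tanning clusters, 13 were tested with no call, 0 lower and 2 higher at an unadjusted p under 0.05 (6.09% and 2.95% of all clusters), and a median of 0.40. That list was led by 10 proteases that activate phenoloxidase, some of which are named venom serine proteases in NR. Of these 10, 7 were tested with a median of 1.01, and they held the 2 higher clusters. Cluster-9520.4471 was at 123.2, 1272 and 267.1 in adult glands and 522.0, 370.3 and 94.5 in nymph glands, and Cluster-9520.4452 at 31.1, 311.8 and 140.7 in adult glands and 1078, 408.2 and 117.3 in nymph glands.

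Markers of some other tissues and clusters matching moths also differed in level between libraries, and their part in the results was not tested. The trachea and epidermis list held 11 clusters, of which 4 were other matches of the name pattern, a calmodulin, a malate synthase, an ovochymase and an ovotransferrin, and these made up most of its sum in every library. The other 7, named trachealess, crumbs or ovo, summed to 1.199, 14.6 and 5.14 rescaled FPKM in adult glands and 26.4, 9.74 and 8.42 in nymph glands, so the stages overlapped. Of these, trachealess (Cluster-5686.0) was at 0.34, 0.17 and 3.26 FPKM in adult glands and 4.63, 5.23 and 3.61 in nymph glands. The crumbs clusters were mixed. Cluster-1262.0 and Cluster-791.0 were detected in adult replicate 2 alone, at 4.48 and 4.19, whereas Cluster-10598.0 was highest in nymph replicate 1, at 15.7. The muscle list (59 clusters) summed to 148.7 to 407.5 in adult glands and 373.5 to 735.4 in nymph glands, the fat body list (16) to 27.7 to 85.4 and 29.4 to 115.2 and the neuron list (26) to 83.4 to 214.6 and 98.6 to 116.9. The haemocyte list (15) was carried by 10 phenoloxidase-activating proteases, which include the leading tanning clusters and some venom gland products. Its other 5, named hemocytin or phenoloxidase 1, summed to 9.81, 9.77 and 0.872 in adult glands and 27.6, 18.5 and 0.737 in nymph glands. No cluster of these lists was called. At an unadjusted p under 0.05, with 6.09% of all clusters lower in adults and 2.95% higher, there were 8 lower and 1 higher of 34 muscle clusters tested, 2 and 1 of 5 for fat body, 2 and 0 of 24 for neurons, 0 and 2 of 9 for haemocytes and 1 and 0 of 4 for trachea and epidermis. The 2 of the haemocyte list were phenoloxidase-activating proteases, and the 1 of the trachea and epidermis list was among its other name matches. Hexamerin (Cluster-9520.5895), a storage protein of fat body chosen after its values were seen, was at 2.04, 0.34 and 2.09 in adult glands and 17.96, 22.1 and 13.4 in nymph glands (limma adjusted p = 0.27). The 6 clusters that the name pattern of this list took for vitellogenin or its receptor lay the other way, at 0 in all nymph libraries and present in some or all adult libraries. Their tissue of origin was not tested, and the receptor cluster (Cluster-1537.0, 399 bases) was detected in adult replicate 3 alone, at 42.6 FPKM.

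The 6 rows dropped for a moth match summed to 0, 0.15 and 0 FPKM in adult glands against 92.4, 24.6 and 2.64 in nymph glands. Of the 6, 5 were highest in nymph replicate 1, against 21.9% of all clusters. Among all 141 clusters whose nucleotide match names those moths or mouse, 117 reached an FPKM of 1 in nymph replicate 1, against 9 to 32 in the adults and 29 and 48 in nymph replicates 3 and 2. Of all clusters, 63.1% reached it in nymph replicate 1, 22.2% to 81.6% in the adults and 52.6% and 48.8% in nymph replicates 3 and 2. The summed FPKM of the 141 did not follow that order. It was 290730, 39683 and 413845 in adult glands and 375654, 191637 and 308979 in nymph glands, highest in adult replicate 3. The members retained 3 clusters whose first NR match is a moth, Cluster-12938.0, Cluster-9520.5537 and Cluster-4656.0. All 30 members that passed the filter had a true bug as first NR match, so the stage comparison of those members is the same without the 4 clusters that lack one.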

How the data were processed

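TRIzol extraction of venom gland RNA and a NEBNext Ultra RNA kit were used, per the labels' protocols. The authors deposited FPKM per transcript cluster, 1 column per library, with database matches. The submitters' processing notes name DESeq2 1.20.0, featureCounts 1.5.0-p3, HISAT2 2.0.5, fastp and CASAVA 1.8 without saying what each did, and which tool made the FPKM is not stated there. The deposited table also lists an NR match score, used for no result. No genome was used, so clusters carry no position and no sequence is shown.

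From these values, each library was divided by its median-ratio size factor, taken over the 4653 clusters detected in all 6, with factors from 0.283 (adult replicate 1) to 1.64 (adult replicate 2). For the stage comparison limma 3.58.1 (R 4.3.3; lmFit, then eBayes with its trend and robust options) was run on log2(rescaled FPKM + 1), which understates the change of low clusters, with stage as the only term and Benjamini-Hochberg adjustment over all clusters tested. Fragments were recovered by fitting, per library, a mapped total and a length offset on low-FPKM clusters (under 3) whose length was 500 to 1100 bases. Of held-out values, 99.4% to 99.8% lay within 0.15 of a whole fragment. Offsets ran from 218 to 293 bases, so FPKM of short clusters compare less well between libraries, and fragments are given from 400 bases up. Both procedures were tested on simulated data.

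Clusters are named by their best database match. Members, lists, roles and the rule for named clusters were chosen with earlier results of these data known. Named are every member past the threshold, the 4 most abundant tested members of each role and those with its largest and smallest change, the 10 largest changes, the 2 highest members per role that missed the filter, and the 2 most abundant tested clusters of each pathway list. Alternatives covered pseudocount, filter, scaling, moderation, a replicate block, cluster length, members with a true bug match and each library left out. The labels give no meaning to the shared replicate numbers, so these were not taken as pairs.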

Additional observations from a re-analysis of the deposited data

How the results depend on the processing

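Over all clusters, 28 were called. The count was 12 with a pseudocount of 0.1, 104 with no filter, 54 with a mean FPKM filter, 72 on FPKM as deposited, 43 after quantile normalization and from 1 to 54 with single libraries left out. Among the members the count of 1 became 0 with a pseudocount of 0.1, 0 after rescaling to an equal total, 0 with the replicate block, 3 with no filter, 3 on FPKM as deposited, and 0 to 1 with single libraries left out. The median log2 fold change of the members tested was -2.65 with a pseudocount of 0.1 and ran from -1.71 to 0.80 with single libraries left out, turning without nymph replicate 1 (0.80) and at -0.63 without nymph replicate 3. Leaving out a nymph library took 11 to 14 members below the filter, which then admits only clusters detected in adults. How far these medians follow from the filter was not tested.

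Alternatives chosen after seeing the data left out adult replicate 1 and nymph replicate 1 together (0 clusters and 0 members called by limma, 700 and 2 at an unadjusted p under 0.05, median -0.0033) or each library with no filter. The latter called 213, 38, 293, 201, 120 and 116 clusters and 3, 0, 4, 1, 0 and 0 members without adult replicates 1, 2 and 3 and nymph replicates 1, 2 and 3, the 4 being 3 lower and 1 higher in adults (Cluster-9520.6778), and its median over 55 members was -0.83 without nymph replicate 1.

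Of the members named, direction turned for chitinase 2 (Cluster-11114.0) after rescaling to an equal total (-0.041) and without adult replicate 1 (-0.35), for Cluster-8421.0 without adult replicate 2 (0.35) and nymph replicate 1 (0.15), for Cluster-9520.1629 without adult replicate 1 (0.30), nymph replicate 1 (0.90) and both (1.93), and for Cluster-9520.4517 without adult replicate 3 (0.15), nymph replicate 1 (0.72) and nymph and adult replicate 1 (0.97). With single libraries left out, their log2 fold changes ran from -0.35 to 1.73, -0.91 to 0.35, -1.65 to 0.90 and -0.97 to 0.72. The cause was not tested.

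Same-numbered libraries correlated at 0.16, -0.043 and 0.21 in their deviations from the stage means, against -0.28 to 0.15 for libraries of unlike number. These values do not settle whether the numbers pair the libraries. The labels give the numbers no meaning, so they were not taken as pairs. The replicate block gave 29 clusters called.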

Other observations

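The chitin-binding peritrophin-A domain also marked 22 clusters that are not members, and the leading ones reached a higher FPKM than any member. These clusters were chosen after their values were seen. The leading cluster, Cluster-9520.4474, matching an unnamed protein of Nezara viridula, was at 54.8, 464.9 and 18.4 FPKM in adult glands against 2121, 175.5 and 79.9 in nymph glands. Cluster-9520.4409 was at 42.7, 301.7 and 44.5 in adult glands against 1523, 160.2 and 134.2 in nymph glands. In both, nymph replicate 1 was highest and adult replicate 2 next. Nymph replicate 1 was the highest library for 14 of the 22, against 21.9% of all clusters. The 9 most abundant in nymph replicate 1 ran from 74.7 to 2121 FPKM. One of the 22 is the nuclear receptor HR3 described with the hormone list. Of the other 21, 13 were tested, 11 of them with a log2 fold change below 0, against 61.6% of all clusters tested, and 1 at an unadjusted p under 0.05, against 6.09%. None was called (Cluster-9520.4474 at limma adjusted p = 0.76 and Cluster-9520.4409 at 0.73). Nymph replicates 2 and 3 lay within the range of the adult libraries in both Cluster-9520.4474 and Cluster-9520.4409.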
